A study of Homo sapiens with 6 samples.

Results

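Transcripts of 36 genes that build the centrosome, the spindle poles and the augmin complex were followed in poly(A) RNA of HCT116, a human cell line established from a colorectal cancer. The genes were taken from a list by symbol, by a rule that uses no measured value. The list was chosen with earlier results of these data known. Of the 36 genes, 35 were found among the 56632 genes of the deposited tables. The remaining gene, TUBGCP5, was not analysed here. The siMatrin3 cells had received a pool of small interfering RNAs (siRNAs) against Matrin3, the product of MATR3 and an RNA-binding protein of the nucleus, and the siCTRL cells a non-targeting control siRNA. Both groups went through transfection and a repeat 72 hours later, and the labels place harvest after a further 48 hours. Each of the 2 groups had 3 libraries, described in the study's methods as biological triplicates. A pool lowers the message only in part and in a mixed population, and a single siRNA pool was used, so its effects on other transcripts cannot be told apart from those of Matrin3.

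The centrosome is a pair of centrioles inside a cloud of pericentriolar material, and it organizes most microtubules of a dividing animal cell. Before mitosis each centriole templates a daughter, the surrounding material takes up gamma-tubulin ring complexes that nucleate microtubules, and the centrosomes move apart to become the spindle poles. Augmin attaches further ring complexes to the sides of spindle microtubules, and pole proteins focus and stabilize the microtubule ends. The 35 genes were divided into 5 subgroups along this sequence, namely centriole assembly (10 genes), pericentriolar scaffold (3), gamma-tubulin ring complex (6), augmin (8) and spindle pole (8).

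The libraries held 40808173 to 54185650 expected counts, and 14033 to 14368 genes reached 1 TPM (an abundance per transcript length, set to an equal sum in each library). MATR3 had 95.2, 112 and 111 TPM in the siMatrin3 libraries, against 186, 180 and 176 TPM in the siCTRL libraries (log2 fold change -0.93, edgeR adjusted p = 7.67e-05). All 8 epithelial markers on the list used here reached 1 TPM, and their summed level was 3305 to 3526 TPM in siMatrin3 and 3545 to 3716 TPM in siCTRL libraries. Of the 6 fibroblast markers, COL1A1 alone reached 1 TPM and 3 were at 0 in all 6 libraries, and the sum was 14.95 to 19.1 TPM in siMatrin3 and 13.7 to 16.2 TPM in siCTRL libraries. No blood cell marker (of 6) and no endothelial marker (of 3) reached 1 TPM.

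All 35 genes passed the filter on low counts. By edgeR's quasi-likelihood test (adjusted p under 0.05), 4 rose in siMatrin3 cells, where 5.05% of all 16786 genes tested did, and 1 fell, where 5.97% did. In either direction 5 of 35 were called, beside 11% of all genes, so the number of calls was close to the background. The genes that rose were SASS6, CEP152 and CEP192, which act in centriole assembly, and CDK5RAP2, a scaffold of the pericentriolar material. The gene that fell was TACC2, a microtubule-associated protein of the transforming acidic coiled-coil family. All the changes were small, with log2 fold changes between -0.21 and 0.27. In poly(A) RNA of a whole culture, a different level per cell cannot be told apart from a different share of cells that express the gene.

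Taken over all 35 genes, 27 had a positive and 8 a negative log2 fold change, where 49.7% of all genes tested had a positive one. The median was 0.11, beside a median of -0.00 for all genes tested. An unadjusted p under 0.05 was found for 18 of 35 members and for 26% of all genes. The TPM values of the groups did not overlap for 12 of 35 members, beside 25.1% of all genes. Together the 35 genes took 0.193%, 0.197% and 0.196% of the counts in siMatrin3 libraries, and 0.185%, 0.192% and 0.188% in siCTRL libraries. In the plot of fold changes by subgroup, all 4 genes called higher belong to the centriole and scaffold subgroups.

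**Figure D1:**
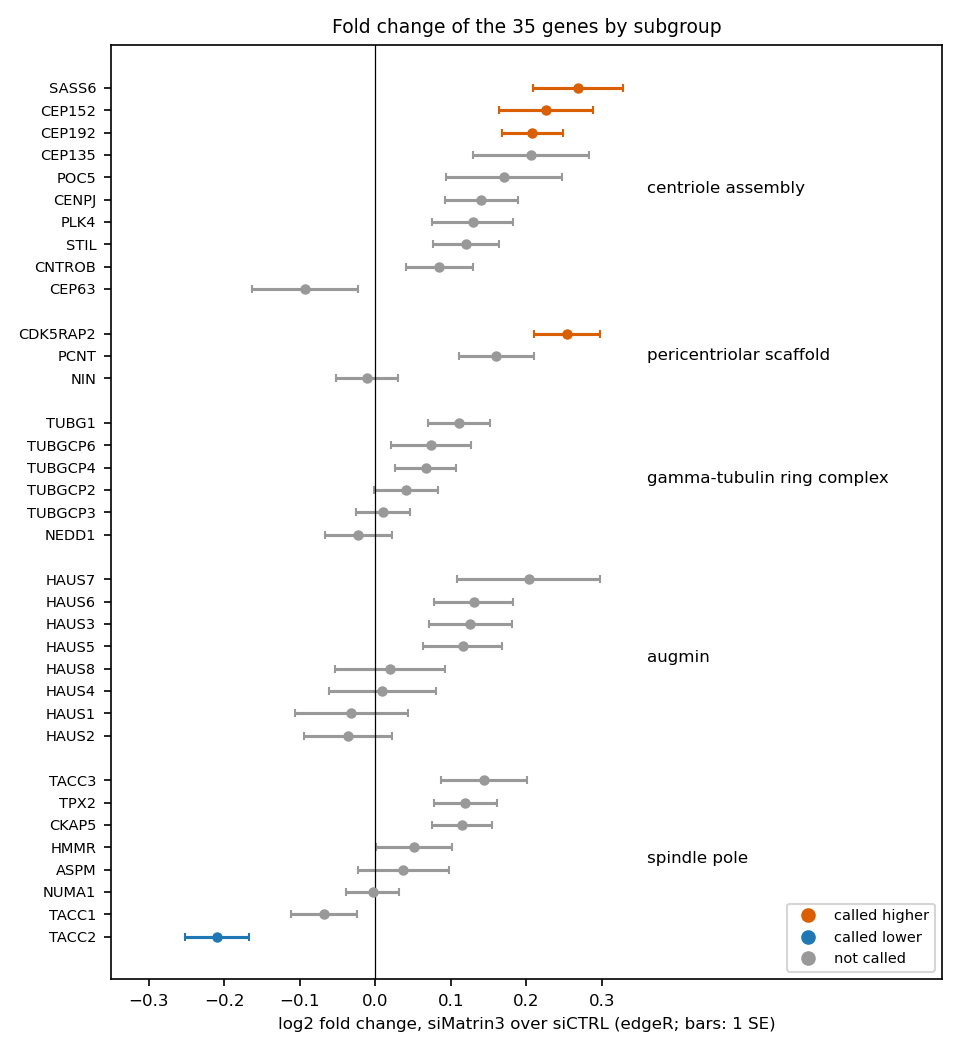
Log2 fold change (siMatrin3 over siCTRL, horizontal axis) of the 35 genes, ordered within each subgroup, with bars of 1 SE from edgeR. Orange points mark the 4 genes called higher, blue the 1 called lower and grey the rest, and 9 of 10 centriole genes lie to the right of 0.

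The count rested on single libraries. Without siCTRL replicate 3, or without siMatrin3 replicate 3, CDK5RAP2 was the only member called. Without siCTRL replicate 1, or without siMatrin3 replicate 1, the genes called were CEP192, CDK5RAP2 and TACC2. Without siMatrin3 replicate 2 the call of CEP152 was lost, and without siCTRL replicate 2 CEP135 and PCNT were called as well, which made 6 higher. Only the call of CDK5RAP2 was present in each of these refits and in every other alternative tried.

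Promoter windows (RefSeq, GRCh38.p14, 250 bases before to 50 after the annotated start) were searched for the 21 of 35 genes with exactly 1 window. Genes with several windows, such as TACC2 with 4, or with none were left out. Cell cycle promoters are often described by 3 short motifs: TTTGAA, the core of the cell cycle genes homology region, CCAAT, the box bound by NF-Y, and TTCCCGC, a site for E2F factors. Both strands were searched, and none of the motifs contains another. TTTGAA occurred in 7 of the 21 windows (33.3%), beside 15.2% of the 35116 windows of the table. CCAAT occurred in 8 (38.1%, beside 34.6%), and TTCCCGC in 6 (28.6%, beside 6.55%). The shares over all windows include genes with several windows, unlike the 21 members, so the sets compared are not alike. These are matches of letters, and no binding was measured. Windows of further members, such as CKAP5, also held more than 1 of the motifs. The stretches below were chosen by hand after the matches were seen. They come from a pair of genes that rose (CEP152 and CEP192) and a pair whose fold changes were near 0 (ASPM and HMMR). They are printed on the strand of the gene, with the motifs on either strand in capitals.
CEP152, chr15:48811239-48811319, minus strand, positions -250 to -170 from the start: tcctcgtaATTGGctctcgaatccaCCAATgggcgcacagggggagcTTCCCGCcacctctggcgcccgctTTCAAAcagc
CEP192, chr18:12991162-12991242, plus strand, positions -200 to -120: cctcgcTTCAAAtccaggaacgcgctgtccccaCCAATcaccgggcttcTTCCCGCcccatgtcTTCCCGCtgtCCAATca
ASPM, chr1:197146689-197146809, minus strand, positions -140 to -20: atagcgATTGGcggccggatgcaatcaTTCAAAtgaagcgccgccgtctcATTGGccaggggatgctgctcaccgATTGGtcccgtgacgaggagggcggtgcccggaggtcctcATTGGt
HMMR, chr5:163460452-163460617, plus strand, positions -180 to -15: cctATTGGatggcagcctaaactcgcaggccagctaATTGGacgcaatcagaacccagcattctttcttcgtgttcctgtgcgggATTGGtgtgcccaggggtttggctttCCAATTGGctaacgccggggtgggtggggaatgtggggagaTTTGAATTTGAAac
The stretches of CEP152 and CEP192 held all 3 motifs, with 1 and 2 copies of TTCCCGC. Those of ASPM and HMMR held 4 and 5 copies of CCAAT, of which a pair overlaps in HMMR, and no TTCCCGC. The other windows with TTCCCGC were those of STIL, HAUS1, HAUS2 and HAUS4, and none of these genes was called. A relation between motifs and fold change was not tested. Among the centriole genes 3 of 5 windows held TTTGAA, 3 held CCAAT and 3 held TTCCCGC. In the spindle pole subgroup 3 of 5 held TTTGAA, 4 held CCAAT and 0 held TTCCCGC. Of the 6 augmin windows, 3 held TTCCCGC and none held the other motifs. Of the 3 windows of the gamma-tubulin ring complex, 1 held CCAAT. Of the other called genes, the window of SASS6 held none of the 3 and that of CDK5RAP2 held TTTGAA once, after the start. TACC2, which has several windows, was not searched.

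In centriole assembly, 3 of 10 genes rose and none fell, beside 5.05% and 5.97% of all genes tested. Of the 10, 9 had a positive fold change, beside 49.7% of all genes, and the median was 0.16. Centriole assembly was a subgroup of low abundance, with mean levels of 3.29 to 33.1 TPM and a median of 8.18 TPM. SASS6 (ENSG00000156876), the protein of the cartwheel that gives the new centriole its symmetry, had 5.62, 6.05 and 5.88 TPM in siMatrin3 libraries, against 4.74, 5.20 and 4.66 TPM in siCTRL libraries. The groups did not overlap, although the highest siCTRL library came close to the lowest siMatrin3 library. The means were 5.85 ± 0.217 and 4.87 ± 0.291 TPM (SD, n = 3 each). SASS6 rose by 20.4% in the fit, or 0.27 on the log2 scale (SE 0.060, adjusted p = 0.0190 by edgeR). An unnamed gene shares exons with SASS6 on the same strand in the GENCODE annotation, so its reads may have been divided.

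CEP152 and CEP192 bring the kinase PLK4 to the parent centriole, where duplication starts. CEP192 (ENSG00000101639) had 8.44, 9.01 and 8.66 TPM in siMatrin3 cells, against 7.45, 8.27 and 7.30 TPM in siCTRL cells, and the groups were separate. CEP192 rose by 0.21 on the log2 scale (SE 0.041, adjusted p = 0.0110 by edgeR). CEP152 (ENSG00000103995) had 6.03, 5.61 and 6.06 TPM in siMatrin3 cells, against 5.19, 5.70 and 4.80 TPM in siCTRL cells. Here the groups overlapped, because siCTRL replicate 2 lay above siMatrin3 replicate 2. CEP152 passed the test narrowly, with a log2 fold change of 0.23 with an SE of 0.062 (edgeR adjusted p = 0.0432), and lost the call with upper quartile scaling, with limma on TPM and with a transcript length offset. Exons of 2 unnamed genes lie opposite CEP152, whereas CEP192 overlaps no annotated exon of another gene.

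PLK4 itself, the kinase that licenses the new centriole, had 13.2, 13.9 and 13.5 TPM in siMatrin3 cells, against 12.01, 13.8 and 11.1 TPM in siCTRL cells. It was not called (log2 fold change 0.13, edgeR adjusted p = 0.159), and siCTRL replicate 2 was as high as the siMatrin3 libraries. STIL, which joins PLK4 to the cartwheel, and CENPJ, which controls centriole length, had log2 fold changes of 0.12 and 0.14 and TPM values that did not overlap between the groups, but their edgeR adjusted p values were 0.109 and 0.0906. CEP135, which links the cartwheel to the outer wall, was the least abundant member, with 3.40, 3.33 and 3.38 TPM in siMatrin3 cells, against 3.02, 3.61 and 2.98 TPM in siCTRL cells. The siCTRL libraries of CEP135 spread on both sides of the siMatrin3 libraries. On counts the log2 fold change was 0.21 (edgeR adjusted p = 0.117), and with limma on log2(TPM + 1) it was 0.06 (adjusted p = 0.752).

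CNTROB, a protein of the daughter centriole, and POC5, a centrin-binding protein of the centriole lumen, had log2 fold changes of 0.08 and 0.17 and were not called. CEP63, the partner that holds CEP152 at the centriole, had the lowest fold change of the subgroup. Its TPM values were 7.27, 9.32 and 9.42 in siMatrin3 cells, against 8.36, 7.70 and 6.93 in siCTRL cells. The siMatrin3 libraries held both the highest values and one below most siCTRL libraries. On counts the log2 fold change was -0.09 (SE 0.070, edgeR adjusted p = 0.443), and with limma on log2(TPM + 1) it was 0.15 (adjusted p = 0.487), so no direction was called. CEP63 shares exons with another gene on its own strand and faces ANAPC13 on the other.

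**Figure D2:**
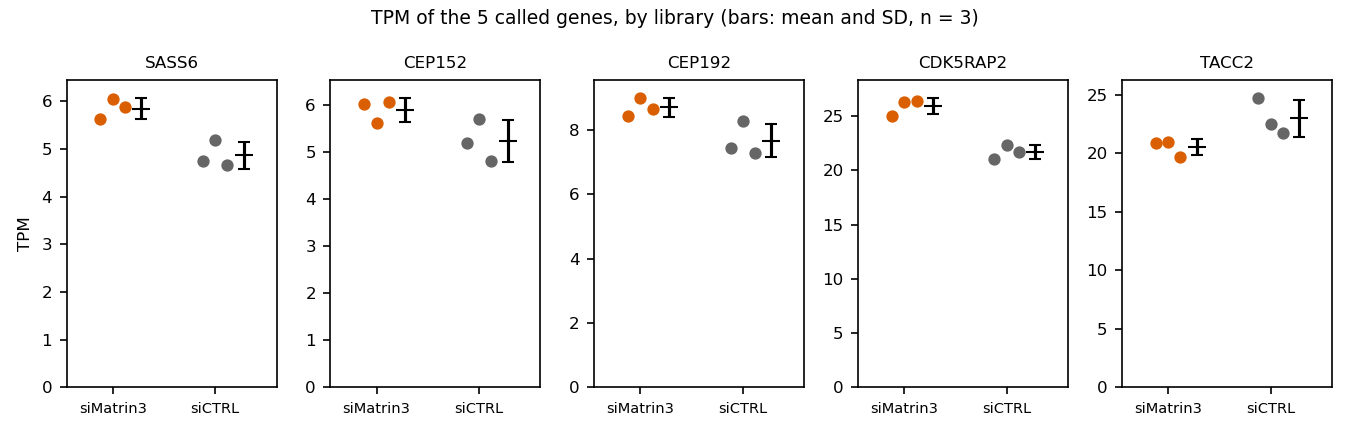
TPM (vertical axes, each starting at 0) of the 5 called genes in the 3 siMatrin3 libraries (orange) and the 3 siCTRL libraries (grey), with the mean and SD of each group beside the points. The groups are separate for SASS6, CEP192, CDK5RAP2 and TACC2 and overlap for CEP152.

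Among the scaffold genes of the pericentriolar material, CDK5RAP2 rose and PCNT and NIN were not called. CDK5RAP2 (ENSG00000136861) recruits gamma-tubulin ring complexes to the centrosome and stimulates their activity. It had 25.0, 26.3 and 26.4 TPM in siMatrin3 cells, against 21.05, 22.3 and 21.7 TPM in siCTRL cells. Every siMatrin3 library was well above every siCTRL library, and the means were 25.9 ± 0.773 and 21.7 ± 0.630 TPM (SD, n = 3 each). This was the strongest call among the members, a rise of 19.2% or 0.25 on the log2 scale (SE 0.044, adjusted p = 0.00620 by edgeR), and it ranked 392 by p among the 16786 genes tested. Over all 17 alternatives its log2 fold change lay between 0.23 and 0.28, with adjusted p between 2.41e-05 and 0.0437. No annotated exon of another gene overlaps CDK5RAP2.

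PCNT (pericentrin), the long coiled-coil protein on which the material assembles, had a log2 fold change of 0.16 (edgeR adjusted p = 0.0660). Its levels were 16.2, 17.9 and 16.0 TPM in siMatrin3 cells, against 13.8, 17.0 and 15.9 TPM in siCTRL cells, with siCTRL replicate 2 inside the siMatrin3 range. DESeq2, the tool named in the study's methods, called PCNT higher with the same 4 genes. NIN (ninein), which anchors microtubules at the parent centriole, had 11.1, 11.3 and 10.4 TPM in siMatrin3 cells, against 11.3, 11.1 and 11.0 TPM in siCTRL cells. Its log2 fold change was -0.01, with a 95% interval of -0.10 to 0.08. PCNT and NIN each share exons with an unnamed gene on the same strand in the GENCODE annotation, which is not the one the counts used.

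None of the 6 genes of the gamma-tubulin ring complex was called, beside 11% of all genes tested. The median log2 fold change of the subgroup was 0.05, or 0.03 without siCTRL replicate 1. TUBG1, the main gamma-tubulin, had the highest fold change of the subgroup. Its levels were 77.2, 78.8 and 79.8 TPM in siMatrin3 cells, against 72.7, 72.9 and 74.96 TPM in siCTRL cells. The groups did not overlap, but the difference did not pass (log2 fold change 0.11 with SE 0.042, adjusted p = 0.119 by edgeR). TUBG1 has a near-identical copy, TUBG2, which had 13.4, 11.5 and 12.9 TPM in siMatrin3 cells, against 11.8, 11.98 and 11.2 TPM in siCTRL cells, and reads shared between them may have been divided either way.

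NEDD1, the adaptor that carries the ring complex to the centrosome and to augmin, had the lowest fold change. It had 11.2, 12.01 and 11.7 TPM in siMatrin3 cells, against 13.4, 11.6 and 12.8 TPM in siCTRL cells, with overlap. The log2 fold change of NEDD1 was -0.02 (edgeR adjusted p = 0.802). The structural ring proteins TUBGCP2, TUBGCP3, TUBGCP4 and TUBGCP6 had log2 fold changes of 0.04, 0.01, 0.07 and 0.07. For TUBGCP2 the sign depended on the scale: limma on log2(TPM + 1) gave -0.09. The median of the subgroup was also negative there, at -0.01. The 95% intervals of the 6 genes lay between -0.12 and 0.20.

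None of the 8 augmin genes was called, beside 11% of all genes tested. The median log2 fold change of the subgroup was 0.07, or 0.03 without siCTRL replicate 1. HAUS7 had the highest fold change, with 10.8, 11.03 and 13.5 TPM in siMatrin3 cells, against 9.47, 10.1 and 9.50 TPM in siCTRL cells. The groups were separate, but siMatrin3 replicate 3 stood above its 2 companions, and the gene did not pass (log2 fold change 0.20 with SE 0.095, adjusted p = 0.204 by edgeR). HAUS7 shares exons with TREX2, an exonuclease gene on the same strand. HAUS2 had the lowest fold change, with 16.4, 19.2 and 17.9 TPM in siMatrin3 cells, against 17.0, 18.8 and 16.7 TPM in siCTRL cells. The siCTRL range of HAUS2 lay within the siMatrin3 range (log2 fold change -0.04, edgeR adjusted p = 0.746).

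HAUS3, HAUS5 and HAUS6 had log2 fold changes of 0.13, 0.12 and 0.13 and edgeR adjusted p of 0.181, 0.191 and 0.143. HAUS1, HAUS4 and HAUS8 had log2 fold changes of -0.03, 0.01 and 0.02. The subunits, which form a single complex, had means of 8.475 to 22.6 TPM over the 6 libraries. The 95% intervals of the 8 folds lay between -0.20 and 0.41 on the log2 scale.

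In the spindle pole subgroup TACC2 fell and no gene rose, where 5.97% and 5.05% of all genes tested did. Of the 8 fold changes 5 were positive, beside 49.7% over all genes, and the median was 0.04. The median rested on single libraries: it was 0.01 without siCTRL replicate 3, 0.08 without siCTRL replicate 2 and 0.03 without siMatrin3 replicate 2. TACC2 (ENSG00000138162) had 20.85, 21.0 and 19.7 TPM in siMatrin3 cells, against 24.8, 22.5 and 21.7 TPM in siCTRL cells. Each siMatrin3 library was lower than each siCTRL library, the lowest of which was close to the siMatrin3 values. The means were 20.5 ± 0.681 and 23.0 ± 1.58 TPM (SD, n = 3 each), and TACC2 fell by 13.5% in the fit (log2 fold change -0.21 with SE 0.042, adjusted p = 0.0122 by edgeR). The call was lost with limma on TPM and with the length offset, as were those of SASS6 and CEP192. TACC2 overlaps no annotated exon of another gene.

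The other TACC genes were not called. TACC3, which crosslinks kinetochore microtubules together with clathrin and CKAP5, had the highest fold change of the subgroup. It had 45.8, 50.4 and 50.5 TPM in siMatrin3 cells, against 41.8, 47.1 and 44.6 TPM in siCTRL cells, and siCTRL replicate 2 lay within the siMatrin3 range (log2 fold change 0.14 with SE 0.057, adjusted p = 0.137 by edgeR). TACC1 had 22.7, 23.3 and 22.0 TPM in siMatrin3 cells, against 24.15, 24.7 and 24.2 TPM in siCTRL cells, without overlap (log2 fold change -0.07, edgeR adjusted p = 0.376). The summed TPM of the 3 TACC genes was 89.3, 94.7 and 92.2 in siMatrin3 libraries, against 90.7, 94.4 and 90.5 in siCTRL libraries. TACC3 made up 51.3%, 53.3% and 54.7% of that sum in siMatrin3 libraries, against 46.1%, 49.96% and 49.3% in siCTRL libraries. The sum overlapped between the groups, whereas the share of TACC3 did not, a description for which no test was run.

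CKAP5, a microtubule polymerase, and TPX2, which activates the Aurora A kinase on spindle microtubules, had log2 fold changes of 0.11 and 0.12. Neither overlapped between the groups in TPM, and neither passed (edgeR adjusted p = 0.0915 and 0.0950). NUMA1, which gathers minus ends at the poles with dynein, was the most abundant member, at 80.7, 80.5 and 85.8 TPM in siMatrin3 cells, against 80.0, 83.9 and 84.7 TPM in siCTRL cells. Its 95% interval ran from -0.08 to 0.07 on the log2 scale. ASPM, which binds microtubule minus ends, and HMMR, which positions TPX2 on the spindle, had log2 fold changes of 0.04 and 0.05 (edgeR adjusted p = 0.751 and 0.572).

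The subgroups were compared by a level for each library, the mean over a subgroup's genes of log2 CPM (counts scaled to library size) minus the siCTRL mean. Centriole genes were at 0.137, 0.140 and 0.161 in siMatrin3 libraries, against -0.0128, 0.0310 and -0.0181 in siCTRL libraries. Scaffold genes were at 0.109, 0.143 and 0.150 in siMatrin3 libraries, against -0.0121, 0.0309 and -0.0189 in siCTRL libraries. These were the largest differences among the 5 subgroups, 0.146 and 0.134, and in both siCTRL replicate 2 was the highest control.

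The gamma-tubulin ring complex was at 0.0338, 0.0576 and 0.0510 in siMatrin3 libraries, against -0.00965, -0.0126 and 0.0222 in siCTRL libraries, a difference of 0.0475 with no overlap. Augmin differed by 0.0672 and the spindle pole genes by 0.0232, and in both the groups overlapped. Within a library, the centriole level exceeded the spindle pole level by 0.126, 0.0999 and 0.143 in siMatrin3 libraries, against -0.0133, 0.0127 and 0.000593 in siCTRL libraries. This difference between subgroups was higher in each siMatrin3 library than in any siCTRL library. These were the subgroups with the largest and the smallest level difference, which favours such a separation. The spindle pole level also includes TACC2, which fell. Subgroup levels rest on genes chosen as a list and were not tested.

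**Figure D3:**
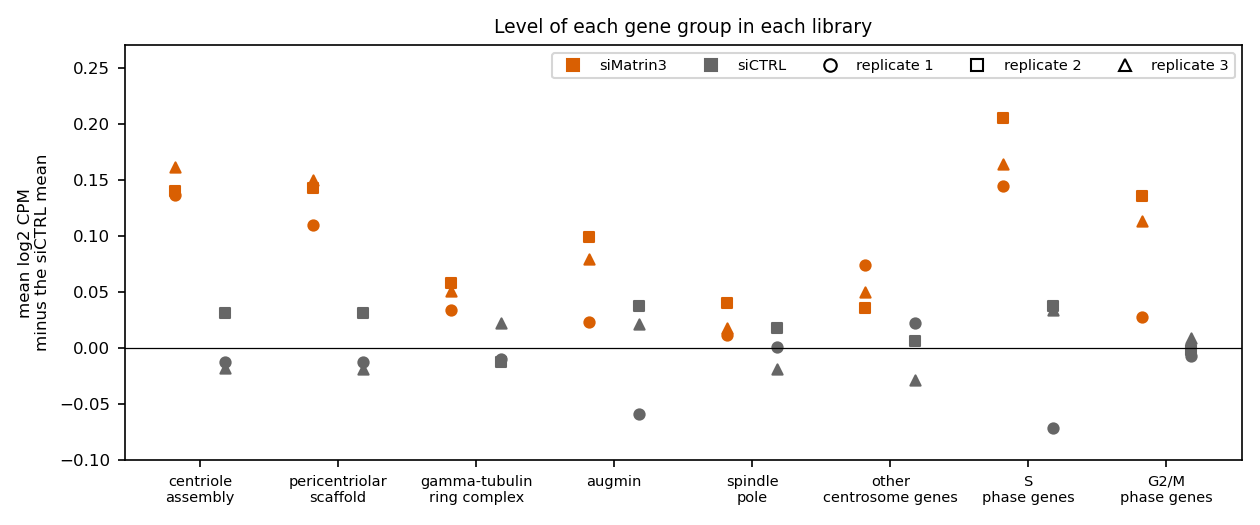
Mean log2 CPM of each gene group minus its siCTRL mean (vertical axis), in the siMatrin3 (orange) and siCTRL (grey) libraries, with a symbol for each replicate number. Among the 5 subgroups the siMatrin3 libraries stand apart from the siCTRL libraries for centriole, scaffold and gamma-tubulin genes. They overlap with them for augmin and the spindle pole. The groups also stand apart for the other centrosome genes (difference 0.0531), the G2/M genes (0.0923) and the S phase genes (0.171).

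Genes of the cell cycle moved in the same libraries. Of 42 S phase genes 17 (40.5%) rose and 0 fell, beside 5.05% and 5.97% of all genes tested. All 42 had a positive fold change, beside 49.7% of all genes, and the median was 0.15. Their level was 0.145, 0.205 and 0.164 in siMatrin3 libraries, against -0.0712, 0.0376 and 0.0335 in siCTRL libraries, with siCTRL replicate 1 the lowest. UHRF1, also on the S phase list, was not matched. Of 49 G2/M genes 9 (18.4%) rose and 1 (2.04%) fell, with a median of 0.10. The G2/M list used here leaves out TPX2, TACC3, HMMR and CKAP5, which are counted as spindle pole members. The level of the G2/M genes was 0.0274, 0.136 and 0.114 in siMatrin3 libraries, against -0.00756, -0.00171 and 0.00926 in siCTRL libraries, and siMatrin3 replicate 1 was close to the controls. Centriole duplication is coupled to S phase and spindle assembly to mitosis. The paper, using flow cytometry, reports that the cell cycle of HCT116 cells was unchanged after Matrin3 knockdown. The part of the cell cycle in the values above was not tested.

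A list of 44 other centrosome genes was set beside the members, all of them tested. Of these 4 (9.09%) rose and 0 fell, beside 5.05% and 5.97% of all genes tested. A positive fold change was found for 27 (61.4%), beside 49.7% of all genes, and the median was 0.05. The other 17 were negative, among them the centriole genes CEP120 (-0.05), SPICE1 (-0.04) and CEP44 (-0.09), none of them called. How many centriole genes have a positive fold change therefore depends on which are listed. Only the 4 called genes are described below. RTTN (rotatin), which acts in the building of full-length centrioles, had 19.15, 18.9 and 20.03 TPM in siMatrin3 cells, against 14.4, 15.5 and 15.7 TPM in siCTRL cells. It was clearly separate between the groups, with a log2 fold change of 0.32 with an SE of 0.038 (edgeR adjusted p = 0.000953). CETN2, a centrin of the centriole lumen that also serves in DNA repair, had 10.8, 12.6 and 11.2 TPM in siMatrin3 cells, against 8.18, 8.26 and 9.13 TPM in siCTRL cells. This too was without overlap, with a log2 fold change of 0.45 with an SE of 0.083 (edgeR adjusted p = 0.00829). CEP68, a linker protein that ties the centrosomes together, had 10.05, 9.48 and 9.68 TPM in siMatrin3 cells, against 8.65, 8.64 and 8.98 TPM in siCTRL cells. CCP110, the cap on the distal end of the centriole, had 10.76, 10.69 and 10.89 TPM in siMatrin3 cells, against 9.36, 10.17 and 9.49 TPM in siCTRL cells. Neither overlapped, and CEP68 and CCP110 rose with log2 fold changes of 0.17 and 0.14 (edgeR adjusted p = 0.0240 and 0.0294).

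Matrin3 is known as a splicing regulator, and the tables give for every gene a transcript length averaged over its transcripts by their estimated abundance. A shift in this length means that the estimated mix of transcripts changed. Of the 35 genes, 34 could be tested with limma, and TPX2 could not, since its length was the same in all libraries to within 1 base. None was called, beside 1 of the 11899 genes tested (0.0084%). The paper reports exon-level splicing changes in its poly(A) data, so the absence of calls here does not show unchanged splicing. Without adjustment, 4 of 34 had p under 0.05, beside 5.96% of all genes. They were CEP135, CEP152, CEP63 and TUBGCP2, so 3 of them act in centriole assembly.

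For CEP135 the weighted length was 4103, 4302 and 4210 bases in siMatrin3 libraries, against 3919, 3864 and 3964 bases in siCTRL libraries. The groups were separate (log2 difference 0.10, limma adjusted p = 0.542). CEP63 ran the other way, with 2039, 1690 and 1724 bases in siMatrin3 libraries, against 2116, 2070 and 2315 bases in siCTRL libraries (log2 difference -0.26, limma adjusted p = 0.756). TPM is computed per length, and the count and TPM folds of CEP63 had opposite signs, as given above. CEP152 had 5405, 5415 and 5367 bases in siMatrin3 libraries, against 5274, 5303 and 5303 bases in siCTRL libraries, a narrow shift of 0.03 on the log2 scale (limma adjusted p = 0.756). TUBGCP2 had 2448, 2344 and 2278 bases in siMatrin3 libraries, against 2277, 2110 and 2179 bases in siCTRL libraries, where the lowest siMatrin3 and the highest siCTRL value nearly met (log2 difference 0.11, limma adjusted p = 0.805).

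**Figure D4:**
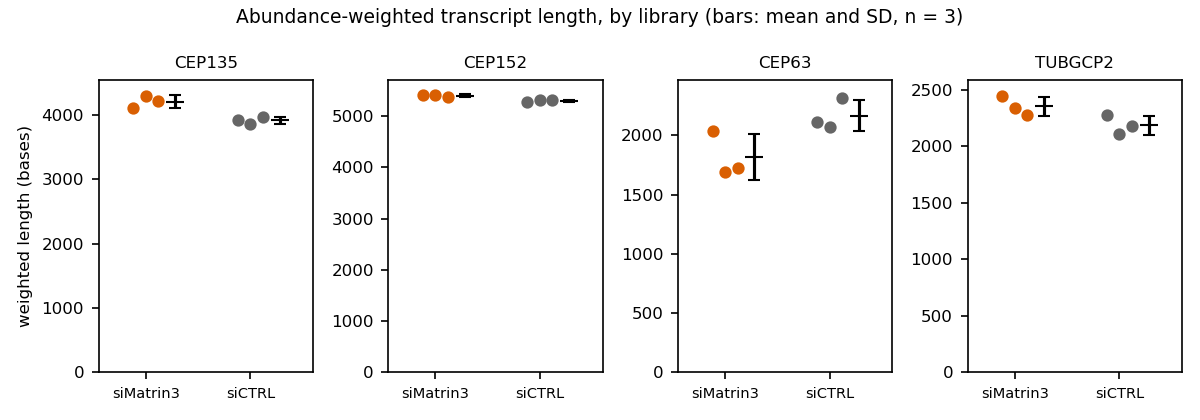
Abundance-weighted transcript length in bases (vertical axes, each starting at 0) of the 4 members with an unadjusted p under 0.05, in siMatrin3 (orange) and siCTRL (grey) libraries, with the mean and SD of 3 libraries. The length is higher in siMatrin3 for CEP135, CEP152 and TUBGCP2 and lower for CEP63, and none of the 4 passed adjustment.

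The members are encoded at long loci, with a median span of 47.85 kb in the GENCODE annotation, beside 27.21 kb for the genes tested that have a span. The called genes spanned 49.4 kb (SASS6), 98.2 kb (CEP152), 134 kb (CEP192), 191 kb (CDK5RAP2) and 265 kb (TACC2). The gene with the longest span of these 5 was the one that fell. Across the 35 genes, which share libraries and are not independent, Spearman's rho between log2 fold change and span was 0.07, and it was -0.13 across 16045 genes.

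**Figure D5:**
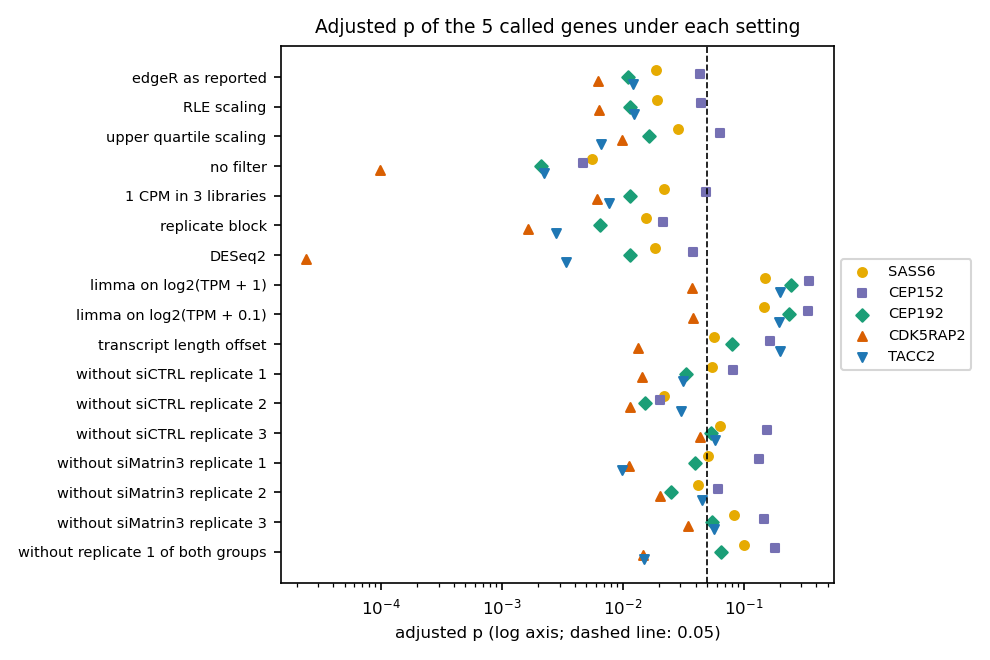
Adjusted p (horizontal log axis, dashed line at 0.05) of the 5 called genes as reported and under 16 alternatives run as refits. CDK5RAP2 stays left of the line in every row, and the other genes cross it in several.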

How the data were processed

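Poly(A) RNA was sequenced from 3 siMatrin3 and 3 siCTRL libraries of HCT116 cells, grouped by their labels. According to the methods, cells were reseeded after the repeat transfection, and they date the harvest differently from the labels. The authors used a stranded mRNA kit and paired reads, aligned them with STAR to hg19 (the submitters' notes give version 2.5.1, the methods another) and estimated gene levels with RSEM. The deposited tables hold expected counts (estimated counts that divide shared reads), TPM as scaled by the authors, and transcript lengths. The deposited FPKM values, scaled by the authors to length and depth, were not used. Whether counting used strand is not given in the sources used here. Gene names came from GENCODE on GRCh38, so no coordinates of the tables are given. Exon overlaps came from the same annotation, and whether the overlapping genes were part of the hg19 annotation used for counting was not checked.

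Rounded expected counts that passed filterByExpr were normalized by TMM, and edgeR 4.0.16 in R 4.3.3 gave two-sided quasi-likelihood tests, with Benjamini-Hochberg adjustment over 16786 genes and a threshold of 0.05. The study used DESeq2, and DESeq2 1.42.0 was an alternative. Log2 of the weighted transcript length was tested with limma 3.58.1 in genes with at least 2 transcripts, at least 50 counts in every library and a length that varied by at least 1 base. Levels per library used log2 CPM with a prior count of 2. Typical variation between replicates, edgeR's biological coefficient of variation, was 5.98%. The p-values weigh the difference between the groups against the spread between libraries of a group. The steps were tested on simulated data. The members and lists were chosen with earlier results of these data known. Values in every library are given for members called, for the highest and lowest fold change of each subgroup and for called genes of the other centrosome list. Other members, shown for their role or their length, and TUBG2 were chosen after their values were seen. Alternatives were RLE and upper quartile scaling, other filters, a replicate block, DESeq2, limma on log2 TPM with a pseudocount of 1 or 0.1, a length offset, an adjusted p under 0.01, other count minimums for length, leaving out each library, and leaving out replicate 1 of both groups.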

Additional observations from a re-analysis of the deposited data

How the results depend on the processing

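The count of 4 members higher and 1 lower was the same with RLE scaling and when 1 CPM was required in 3 libraries, and it was 3 and 1 with upper quartile scaling, 5 and 1 with no filter and 5 and 1 with DESeq2. With limma on log2(TPM + 1), limma on log2(TPM + 0.1), the transcript length offset and an adjusted p under 0.01 it was 1 higher (CDK5RAP2) and 0 lower. At the threshold of 0.05, limma on TPM called 437 and 429 genes in all and the offset 706, beside 1849 in the reported fit. Leaving out a library gave 1 to 6 members higher and 0 to 1 lower, and leaving out replicate 1 of both groups gave 1 and 1. With the replicate block, PCNT and TACC3 were added, which made 6 higher and 1 lower, and 2716 genes were called in all. Deviations of same-numbered libraries correlated at 0.177, 0.0896 and 7.21e-05, beside -0.145 to 0.0641 for libraries with different numbers. The same-numbered value was the highest for siMatrin3 replicates 1 and 2 but not for replicate 3. Whether the numbers pair the samples was therefore not settled. Over the 35 fold changes and 17 alternatives, 556 values kept their side of the threshold, 33 lost it, 6 gained it and 0 called values changed sign. CDK5RAP2 lost its call in 0 of 17, TACC2 in 6, CEP192 in 7, SASS6 in 9 and CEP152 in 11. The cause was not tested. The level differences of the 5 subgroups moved by less than the spread between replicates with RLE scaling and with medians over genes. RLE scaling hardly differed from TMM here (median log2 fold change of all genes -0.00066, beside -0.00106), so it could hardly move them. The levels were not recomputed with a library left out. Median fold changes were recomputed with libraries left out. They ran from 0.01 to 0.08 for the spindle pole, from 0.03 to 0.06 for the gamma-tubulin ring complex and from 0.03 to 0.09 for augmin, beside 0.15 to 0.17 for centriole assembly and 0.13 to 0.20 for the scaffold. The scaffold median was 0.10 with limma on log2(TPM + 1) and 0.12 with the length offset. The length test called 0 members under each of its 9 alternatives. With 3 libraries a group and folds of this size, genes not called may still differ.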
